A study of Caenorhabditis elegans with 2 samples.

Results

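Nuclear hormone receptor genes of Caenorhabditis elegans were examined in ChIP-seq peak lists of CEH-24, which is a homeodomain protein related to the NK-2 factors. The set comprised the protein-coding genes whose Ensembl name starts with nhr-, which gave 269 of 19985 protein-coding genes. Membership depended on the gene name alone and on no ChIP value. For each gene the highest signal value was taken among list entries with a summit within 1000 bp of any of its annotated transcript starts, and a gene is said to have no entry where no summit lay in that window. The 2 samples formed a single group of whole late embryos of strain OP673, of pooled male and female sex, collected 5 hours after synchronization by egg bleaching. All worms carried unc-119 (tm4063) III and the transgene wgIs673, which expresses CEH-24 with a C-terminal GFP-FLAG tag. The sample description gives an anti-GFP antibody for the immunoprecipitation, while the antibody label names ceh-24. The description was followed here. There was no second condition, so values were compared between replicates and between genes, and no p-value across conditions exists.

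Nuclear hormone receptors are transcription factors that bind DNA through a zinc finger domain and, in many members, a small lipophilic ligand through a second domain. The nematode family is greatly expanded, mostly by receptors related to the vertebrate HNF4 type, beside a small number with clear relatives in insects and vertebrates. Known members act in molting, fat metabolism, xenobiotic responses and embryonic development, and the roles of most are not known. CEH-24 is known from pharyngeal and vulval muscle and from sublateral motor neurons. Vertebrate NK-2 factors of the Nkx2 type bind DNA around the letters TNAAGTG.

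Each replicate had its own list of peaks and background, 30000 entries for replicate 1 and 28119 for replicate 2, and both replicates together had a pooled list of 30000 entries. A further list held the 276 optimal peaks that passed the irreproducible discovery rate (IDR) procedure. This procedure is meant to keep peaks that rank alike in replicates. By signal, the optimal peaks were the 276 highest entries of the pooled list. A place among them therefore does not by itself show that the replicates agreed. The lists of peaks and background consisted mostly of entries with a high q-value. The number of entries with a q-value of at most 0.05 was 420 in the pooled list, 228 in replicate 1 and 729 in replicate 2. An entry is therefore not a called site, and the word optimal is used below only for the 276 peaks. Signal values are the authors' own and were ranked within 1 list only, since their scale differs between lists. Pooled values ran from 25.45 to 556.5 and optimal peaks started at 102.2. Depth is unknown, as the lists hold no read totals. The signal of a whole embryo averages over all its cells, so few cells with strong binding and many cells with weak binding cannot be told apart. The ceh-24 gene itself had a pooled entry of 52.27, with 36.19 in replicate 1 and 28.63 in replicate 2, none with a q-value of 0.05 or less. The unc-119 gene had 26.41, 24.08 and 22.16 in the same lists.

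Few receptor genes stood above the background of the lists. An optimal peak lay within 1000 bp of 2 of the 269 receptor genes, nhr-255 and nhr-142, which is 0.743% with a Wilson 95% interval of 0.204 to 2.67%. The share among all protein-coding genes was 1.11%, so the receptors lay at the background. Another receptor, nhr-41, had a pooled q-value of 0.05 or less without being in the optimal list, which made 3 of 269 receptors (1.12%) against 1.72% of all genes. The pooled summits at nhr-255 and nhr-41 lay inside a tRNA gene, and the optimal peak at nhr-142 had its summit nearer to the start of a neighbouring gene. The windows of 201 bases centred on these 3 pooled summits are shown first because they carry the strongest signals at receptor genes. They are read from the RefSeq genome sequence of build ce11 (WBcel235) on the plus strand, at chrX:15741990-15742190 for nhr-255, chrIV:1388141-1388341 for nhr-41 and chrV:5790960-5791160 for nhr-142. Capitals mark the tRNA gene at nhr-255 and nhr-41, and the letters AAGTG, read on the minus strand, at nhr-142.
nhr-255: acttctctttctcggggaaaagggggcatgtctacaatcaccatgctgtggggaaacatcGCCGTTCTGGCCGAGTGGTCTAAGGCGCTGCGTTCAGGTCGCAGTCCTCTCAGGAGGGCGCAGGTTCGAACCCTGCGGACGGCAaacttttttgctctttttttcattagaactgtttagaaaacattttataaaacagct
nhr-41: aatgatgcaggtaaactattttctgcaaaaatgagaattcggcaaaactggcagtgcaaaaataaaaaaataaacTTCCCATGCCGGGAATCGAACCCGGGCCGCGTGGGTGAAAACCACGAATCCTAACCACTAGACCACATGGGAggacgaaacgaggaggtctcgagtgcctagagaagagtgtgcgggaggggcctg
nhr-142: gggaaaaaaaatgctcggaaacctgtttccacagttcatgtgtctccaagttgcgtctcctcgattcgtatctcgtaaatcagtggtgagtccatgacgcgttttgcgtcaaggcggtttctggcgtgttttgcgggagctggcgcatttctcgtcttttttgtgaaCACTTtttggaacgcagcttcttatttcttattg

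The sequence at nhr-255 holds the whole 84 bp tRNA-Leu gene ZK678.t1, which lies on the plus strand at chrX:15742050-15742133. The sequence at nhr-41 holds the 72 bp tRNA-Glu gene Y104H12A.t1, which lies on the minus strand at chrIV:1388216-1388287. Both contain the letters GTTCGANNC, searched on both strands, which are the core of the B box, an internal promoter element of tRNA genes read by the RNA polymerase III machinery. These letters stand as GTTCGAACC in nhr-255, where the minus strand also matches 1 base away, and as GTTCGATTC on the minus strand in nhr-41. This motif was chosen after the summits had been seen. It occurred in 3 of 126 distinct receptor windows (2.38%), against 2.2% of the highest windows at other genes and 2.14% of all pooled entries. The other receptor with the motif, nhr-109, had a pooled signal of 36.89 and no tRNA gene near. The sequence at nhr-142 has no tRNA or snoRNA gene near and holds the letters AAGTG from 67 bases to the right of the summit, but not TNAAGTG.

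The receptor gene nhr-255 (WBGene00014068, chromosome X, 15742610 to 15744298, plus strand) had the highest value of the set in every list. Its signal was 79.09 in replicate 1 (q = 0.0275, rank 128), 98.86 in replicate 2 (q = 0.00662, rank 60) and 178.2 in the pooled list (q = 0.00304, rank 80). Both replicates were high, and each lay above every other receptor of its list. The pooled peak spanned 15741842 to 15742337 with its summit at 15742090, which is 520 bp upstream of the nhr-255 start and 40 bp from the start of the tRNA-Leu gene. Of the 36-base words in that window 66.3% occurred once in the genome, and the others occurred at more than 1 place.

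The receptor gene nhr-142 (WBGene00018430, chromosome V, 5785957 to 5790553, minus strand) differed between the replicates. Its signal was 35.47 in replicate 1 (q = 0.496, rank 2333) and 65.68 in replicate 2 (q = 0.00767, rank 196), with 109.8 in the pooled list (q = 0.019, rank 238). Of the replicates, only replicate 2 placed it past a q-value of 0.05. The pooled peak spanned 5790812 to 5791307, and its summit at 5791060 lay 507 bp upstream of nhr-142 and 170 bp upstream of the divergent gene F44E7.9, which encodes a Rab5-interacting protein. The peak cannot be assigned to either gene from these lists. Every 36-base word in its window occurred once in the genome.

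The receptor gene nhr-41 (WBGene00022423, chromosome IV, 1386215 to 1399353, plus strand), which has 5 annotated starts, showed the opposite imbalance. Its signal was 66.93 in replicate 1 (q = 0.0427, rank 176) and 94.8 in the pooled list (q = 0.0319, rank 330). The highest value in replicate 2 was 34.08 (q = 0.247), and it came from another place, 400 bp upstream of a start. No entry of replicate 2 overlapped the pooled peak, which spanned 1387993 to 1388488 within an intron. Its summit at 1388241 lay 144 bp downstream of an internal start and 46 bp from the start of the tRNA-Glu gene. In this window 71.7% of the 36-base words occurred once in the genome.

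Over all protein-coding genes a tRNA or snoRNA gene near the summit was common among the strong peaks and rare among the rest. Within 250 bp of the summit such a gene was present for 59 of 220 other genes with an optimal peak (26.8%), and for 73 of 341 other genes with a pooled q-value of 0.05 or less (21.4%). Among all other genes with a pooled entry the share was 1.96%, and among receptor genes with one it was 2 of 128 (1.56%). At the highest replicate 1 summits the shares were 1.56% of receptors with an entry and 1.62% of other genes. At the highest replicate 2 summits such a gene was near for 3 receptors (2.63%), against 1.76% of other genes. A tRNA or snoRNA gene lay within 1000 bp of a start for 7 receptor genes, nhr-15, nhr-41, nhr-138, nhr-150, nhr-193, nhr-255 and nhr-258. Of these, nhr-193 and nhr-258 had no entry in any list. The gene nhr-150 had 20.59 in replicate 1, 19.99 in replicate 2 and 31.03 in the pooled list. Its pooled summit lay 661 bp from the tRNA gene, and its replicate 2 entry came from another place. The neighbour was a tRNA gene at nhr-41, nhr-150, nhr-193 and nhr-255, and a snoRNA gene at the other 3. Of the 4 receptors with a tRNA gene, nhr-41 and nhr-255 had a pooled q-value of 0.05 or less. Of 406 other genes with a tRNA or snoRNA gene within 1000 bp of a start 15.8% had an optimal peak, against 0.808% of the 19310 other genes without one. Among the receptors an optimal peak was present at 1 of the 7 with such a gene and at 1 of 262 without one. Whether the signal at the tRNA genes depends on CEH-24 was not tested.

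**Figure D1:**
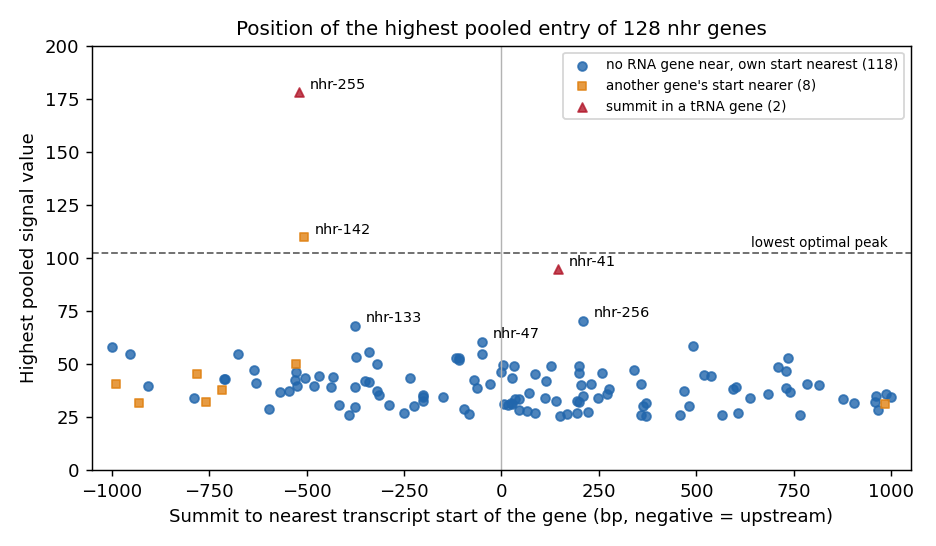
Highest pooled signal value (vertical axis) against the signed distance in bp from the summit to the nearest start of the same gene (horizontal axis, negative is upstream) for the 128 nhr genes with a pooled entry. Triangles mark the 2 genes with the summit in a tRNA gene and squares the 8 genes with another gene's start nearer, and the 3 highest points all belong to these classes.

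Below these 3 genes the signals of the receptors fell into the body of the list. The next highest, nhr-256, had 34.54 in replicate 1, 33.08 in replicate 2 and 70.5 in the pooled list (q = 0.15). It was followed by nhr-133 with 41.51, 24.55 and 67.99, and by nhr-47 with 37.52, 42.56 and 60.46, in the same order of lists. The replicate 1 value of nhr-47 came from another place, 567 bp downstream of the start, and at its pooled peak replicate 1 had 24.22 (rank 11350). At the pooled peak nhr-47 therefore ranked higher in replicate 2 (rank 898) and nhr-133 in replicate 1 (rank 983). Next came nhr-95 with 33.87, 25.86 and 58.53. The gene nhr-183 had 41.37 in replicate 2 and 57.96 in the pooled list. Its pooled summit lay in a coding exon of another receptor gene, nhr-275. The pooled peak was overlapped by a replicate 1 entry of 26.39 (q = 0.77), whose summit lay beyond 1000 bp from the nhr-183 start. The gene nhr-145 had 53.18 in replicate 2 and 55.61 in the pooled list, and no replicate 1 entry overlapped its pooled peak. For nhr-145 the replicate 2 entry reached a q-value of 0.0179 at rank 364, 332 bp upstream of its start, while the pooled q-value was 0.446. The signal at nhr-145 was thus present in the list of a single replicate.

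The remaining genes among the 15 highest were nhr-204, nhr-45, nhr-43, nhr-85, nhr-65 and nhr-128, whose pooled signals lay between 52.89 and 55.01. Of these, nhr-85 is a receptor of the E75 and Rev-erb type, and it had 33.23 in replicate 1 and 17.92 in replicate 2. The gene nhr-128 had no entry in replicate 1 and 42.75 in replicate 2. The gene nhr-43 had 37.50 and 22.31, nhr-204 had 21.78 and 34.17, and nhr-65 had 23.21 and 28.74 at a place other than its pooled peak, where the replicates had 22.11 and 41.13. The order of these genes differed between the replicates. Among the 5 highest receptors of replicate 1 were also nhr-231 with 50.31 (q = 0.121, rank 402) and nhr-235 with 38.59. Neither had an entry in replicate 2, and their pooled signals were 39.29 and 52.79.

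**Figure D2:**
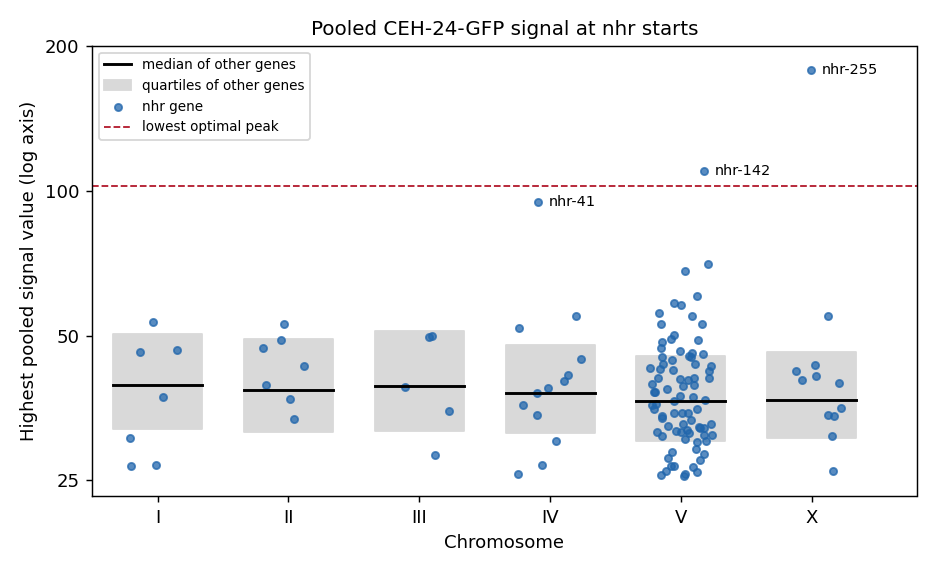
Highest pooled signal value (log axis) of each nhr gene with a pooled entry, by chromosome. Lines and grey boxes give the median and quartiles of the other protein-coding genes with a pooled entry on that chromosome. The dashed line is the lowest optimal peak at 102.2, and nhr-255 and nhr-142 alone lie above it.

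An entry of any strength was found in the pooled list for 128 receptors (47.6%, Wilson interval 41.7 to 53.5%), against 49.9% of all genes. In replicate 1 it was again 128 (47.6%), against a background of 50.9%. In replicate 2 it was 42.4% of the 269 (interval 36.6 to 48.4%), against 47.4%. Entries in both replicate lists were found for 59 receptors (21.9%, interval 17.4 to 27.3%), against 29.8% of all genes. This interval lay below the share of all genes. On chromosome V, which held most receptors, the shares in both lists were 20.4% of receptors and 22.8% of other genes. The receptors had the lower share on every other chromosome too, and the difference was not tested. No entry in any list was found for 75 receptors (27.9%), close to the 28.9% of other genes. The q-value of 0.05 was reached by 2 receptors in replicate 1, nhr-255 and nhr-41, where 0.906% of all genes reached it. In replicate 2 it was reached by 3, nhr-255, nhr-142 and nhr-145, where the background was 2.36%. The gene nhr-255 was the only receptor past it in both replicates.

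The middle of the signal distribution was close to that of other genes. The median pooled signal of the 128 receptors was 38.14, with quartiles of 31.83 and 45.19, against a median of 37.87 and quartiles of 31.1 and 48.09 in 9841 other genes. The medians were 23.16 and 24.11 in replicate 1, and 23.29 and 23.35 in replicate 2. At the upper end, 4 of the 128 (3.12%) had their highest entry among the 1000 highest pooled entries, against 6.79% of the other genes. This difference rests on 4 genes and was not tested. Ranks from 5001 to 20000 held 78 of the 128. The median pooled q-value of the receptors was 0.79, and 115 of the 128 had a q-value above 0.5.

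**Figure D3:**
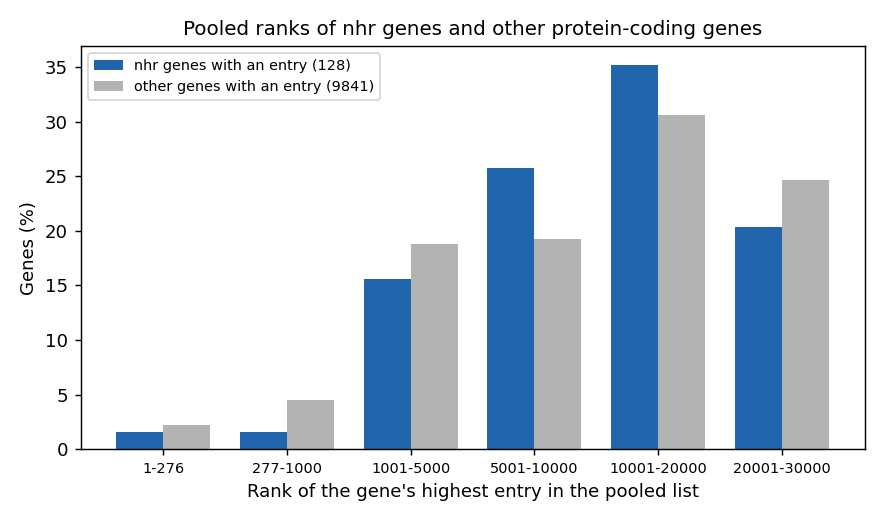
Percent of genes (vertical axis, from 0) by the rank of their highest entry in the pooled list, where rank 1 is the strongest entry. The 128 nhr genes (blue) hold 1.56% in each of the first 2 classes, and the 9841 other genes (grey) hold 2.24% and 4.55%.

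The window of 1000 bp decided membership in these counts for a few genes at its edge. Just inside were nhr-127 at 999 bp with a pooled signal of 34.48 and nhr-183 at 998 bp with 57.96. Just outside were nhr-185 at 1017 bp with 55.48 and nhr-143 at 1023 bp with 36.74. The signals on both sides of the edge overlapped.

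The receptor genes were concentrated on chromosome V, which held 167 of them (62.1%) against 25% of all protein-coding genes. On that chromosome 84 receptors (50.3%, Wilson interval 42.8 to 57.8%) had a pooled entry, against 41.4% of the other genes there. In replicate 1 the shares were 49.7% and 43.5%, and in replicate 2 they were 38.3% and 40.9%. The higher share of the receptors on chromosome V was thus present in the pooled list and in replicate 1 but not in replicate 2. On chromosome I the receptors lay below their neighbours in each list. There 7 of 23 receptors (30.4%, interval 15.6 to 50.9%) had a pooled entry, against 59.5% of other genes. In each replicate list 8 of the 23 (34.8%) had one, against 58.2% and 53.2%. Chromosome IV differed between replicates, with 13 of 33 receptors (39.4%) in the pooled list but 20 (60.6%) in replicate 2, against 50.1% and 46.3% of other genes. Chromosomes II, III and X held 15, 8 and 23 receptors, of which 7, 5 and 12 had a pooled entry. Their intervals included the shares of the other genes.

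**Figure D4:**
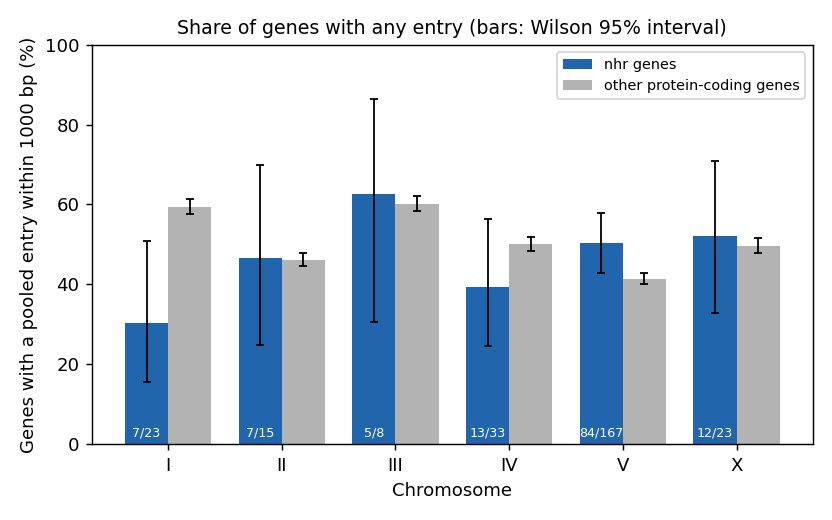
Percent of genes with any pooled entry within 1000 bp of a start (vertical axis, from 0) by chromosome for nhr genes (blue, counts inside the bars) and other protein-coding genes (grey), with Wilson 95% intervals as error bars. The nhr genes lie below the other genes on chromosome I (30.4% against 59.5%) and above them on chromosome V (50.3% against 41.4%).

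Many receptors lie side by side in the genome with no other protein-coding gene between them. Such runs of 3 or more held 81 receptors in 16 runs, with 67 of these genes on chromosome V, and 28 pairs held another 56. A pooled entry was present for 39 of the 81 (48.1%, median signal 36.89), for 28 of the 56 (50%, median 36.28) and for 61 of the 132 single receptors (46.2%, median 39.4). The shares differed little between these classes. The longest run, of 9 genes from nhr-185 to nhr-124 on chromosome V (3844429 to 3886204), had pooled entries at 4 genes and a highest pooled signal of 45.07. A run of 7 from nhr-56 to nhr-96 (2219004 to 2235180) had pooled entries at 5, and its highest pooled signal was the 52.89 of nhr-128. The run of nhr-122, nhr-92, nhr-87 and nhr-146 on chromosome IV had no pooled entry, though each of these genes had an entry in a replicate list. Neighbours can share 1 entry, and 2 such entries counted for 2 genes each. These were the entry of 40.80 at nhr-18 and nhr-103 and that of 32.11 at nhr-94 and nhr-152. The 128 receptors therefore rested on 126 distinct peaks.

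The summits at receptors were placed less often upstream of the start than those of other genes in the pooled list and in replicate 1. They lay upstream for 59 of 128 (46.1%) in the pooled list, against 57.4% of other genes, and for 61 of 128 (47.7%) in replicate 1, again against 57.4%. In replicate 2 the shares were 53.5% and 54.3%, so the difference was not seen there. In the pooled list the difference was not the same on every chromosome. On chromosome V 34 of 84 receptors (40.5%) had an upstream summit, against 54.9% of the other genes. On X the order was reversed, with 9 of 12 (75%) against 56.3%. On I and II 57.1% of receptors each stood against 60.5% and 57.9%. On III and IV it was 2 of 5 (40%) and 6 of 13 (46.2%), against 59.2% and 55.7%. The class from 0 to 500 bp downstream held 45 receptors (35.2%) in the pooled list, against 24.5% of other genes. The gap was smaller in each replicate, with 27.3% against 24.2% in replicate 1 and 30.7% against 25.7% in replicate 2. By annotation 46 of the 126 peaks (36.5%) had an intergenic summit, 40 an intronic one, 29 (23%) lay in a coding exon, 9 (7.14%) fell on a 5′ UTR, and 3′ UTRs held the other 2. The corresponding shares of coding exons and 5′ UTRs at other genes were 19.8% and 3.88%.

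Receptor genes rarely shared their promoter region with another gene. Another protein-coding start lay within 1000 bp of a start for 25 receptors (9.29%), against 25.5% of other genes. Few of their summits were nearer to another gene, 8 of 128 (6.25%) against 14.4%. These were the summits at nhr-15, nhr-18, nhr-38, nhr-68, nhr-142, nhr-148, nhr-152 and nhr-280. The gene nhr-68, which acts with nhr-10 in the switch to the propionate shunt, had the start of H12C20.7 nearer to its pooled summit. Genes with a close neighbour had optimal peaks more often in the whole genome, 2.6% of 5037 other genes against 0.606% of 14679 without one. Among the receptors it was 1 of 25 and 1 of 244.

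The letters TNAAGTG, searched on both strands in the 201 bases around each summit, occurred in 8 of the 126 receptor windows (6.35%). They occurred in 9.34% of the highest windows at other genes and in 9.08% of all pooled entries. The shorter AAGTG, which lies within it, occurred in 48 windows (38.1%), against 36.8% and 36%. The base composition was similar, with a mean GC content of 35% ± 6.62 (SD, n = 126) against 36.1% ± 7.31 at other genes. The 8 windows belonged to nhr-14, nhr-18 together with nhr-103, nhr-19, nhr-45, nhr-111, nhr-187, nhr-227 and nhr-235. None of them was an optimal peak. The windows of nhr-45 and nhr-235 are shown because they had the highest pooled signals among these, 54.88 and 52.79. They lie at chrX:4661170-4661370 and chrII:12640460-12640660 on ce11, plus strand, and capitals mark the motif, which is on the minus strand for nhr-235.
nhr-45: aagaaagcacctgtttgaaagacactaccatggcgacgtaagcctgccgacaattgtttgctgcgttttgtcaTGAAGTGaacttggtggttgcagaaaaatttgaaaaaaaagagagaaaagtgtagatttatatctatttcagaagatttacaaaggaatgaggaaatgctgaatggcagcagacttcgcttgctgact
nhr-235: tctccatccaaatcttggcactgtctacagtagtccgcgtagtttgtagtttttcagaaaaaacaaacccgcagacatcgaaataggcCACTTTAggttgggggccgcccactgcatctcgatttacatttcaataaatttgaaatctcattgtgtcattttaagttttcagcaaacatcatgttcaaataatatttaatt

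The motif began 27 bases to the left of the summit at nhr-45 and 12 bases to the left of it at nhr-235. At nhr-45 the pooled peak was overlapped by an entry of 28.82 in replicate 1 (rank 5982), whose summit lay beyond 1000 bp from the start, and by one of 27.57 in replicate 2 (rank 6327). At nhr-235 it was overlapped by an entry of 38.59 in replicate 1 and by none in replicate 2. The summit was 952 bp upstream of the start of nhr-45 and 110 bp upstream of that of nhr-235. A match to the letters describes the sequence alone.

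The replicates ordered the receptors weakly alike. Over the 59 receptors with an entry in both lists Spearman's rho of the highest signals was 0.22 and Pearson's r of the log2 signals was 0.39. Leaving out nhr-255 gave 0.18 and 0.19, so that the Pearson value rested largely on this gene. Over 5888 other genes the values were 0.25 and 0.46. Genes are not independent replicates, both lists share a control file, and no test was made. In 33 of the 59 receptors (55.9%) the highest entries of the replicates overlapped, against 56.5% for other genes. Of the 128 pooled entries, 42 were overlapped by entries of both replicates, 39 by replicate 1 alone, 36 by replicate 2 alone and 11 by neither.

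**Figure D5:**
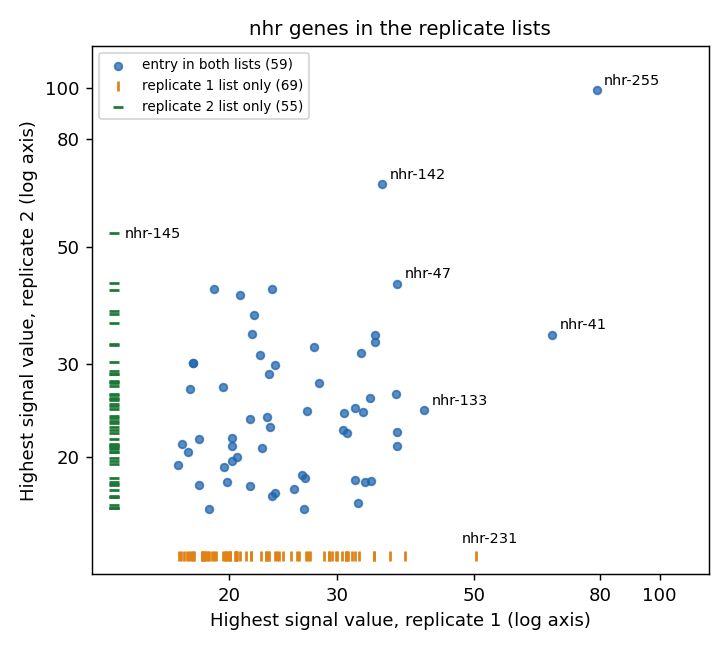
Highest signal value of each nhr gene in replicate 1 (horizontal, log axis) and replicate 2 (vertical, log axis), with ticks at the margins for 69 genes in the replicate 1 list alone and 55 in the replicate 2 list alone. Of the 59 genes in both lists nhr-255 alone is at the upper right, while nhr-142 is high in replicate 2 and nhr-41 in replicate 1.

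The receptors with clear relatives outside nematodes were described as a group of 11 genes. As throughout, the values of a gene are the highest in reach in each list and need not come from the same place. A pooled entry was present at 9 of them, none was optimal, and the median pooled signal was 38.82 with a range from 28.16 to the 94.8 of nhr-41. The gene nhr-25, which acts in epidermal development and molting, had 28.01 in replicate 1, 27.63 in replicate 2 and 41.20 in the pooled list. The molting regulator nhr-23 had 26.79, 24.44 and 30.57, but no replicate 2 entry overlapped its pooled peak. The tailless-type receptor nhr-67 had no entry in replicate 1, 25.88 in replicate 2 and 38.82 in the pooled list. The NR4A-type receptor nhr-6, which acts in spermatheca development, had no entry in replicate 1, 23.39 in replicate 2 and 28.16 in the pooled list. Its pooled peak was overlapped by no entry of either replicate. For nhr-8, which acts in sterol and xenobiotic metabolism, there was no pooled entry, with 25.51 and 17.40 in the replicates. The GCNF-type receptor nhr-91 had no entry in any list. The remaining pooled values were 30.97 for nhr-48, 38.64 for nhr-111, 49.57 for nhr-239 and the 53.41 of nhr-85. Apart from nhr-41 in the pooled list and replicate 1, no gene of this group reached a q-value of 0.05 in any list.

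Receptors known from metabolism and stress were at the level of the whole set. Of 14 such genes, 8 had a pooled entry, with a median of 38.16 and a range from 30.18 to 46.59, and none had a q-value of 0.05 or less. The fasting and fat metabolism regulator nhr-49 had 37.49 in replicate 1, 20.97 in replicate 2 and 46.16 in the pooled list. Its partner nhr-80 had 22.50, 31.18 and 39.13, its partner nhr-66 had none, 23.91 and 30.18, and its partner nhr-13 was present in replicate 1 only, at 19.98. At the pooled peak of nhr-80 replicate 1 had no entry and replicate 2 had 16.63. At the pooled peaks of nhr-49 and nhr-66 replicate 2 had 20.56 and 23.39. The highest of the group, nhr-64, had 32.82, 31.52 and 46.59. The gene nhr-14, which acts in iron uptake, had 27.05 in replicate 1, none in replicate 2 and 39.77 in the pooled list. Pooled values of 37.19, 31.68 and 30.22 were found for nhr-69, nhr-68 and nhr-86. The propionate regulator nhr-10, the dietary restriction gene nhr-62 and the fat storage gene nhr-76 had no entry in any list. The hypoxia target nhr-57 was listed in replicate 1 alone, at 24.16, and nhr-114, which acts in the response to diet, in replicate 2 alone, at 20.83.

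Of 4 further receptors known from development, 3 had a pooled entry. The seam cell gene nhr-60 had 29.09 in replicate 1 and 37.25 in the pooled list, the excretory cell gene nhr-31 had 23.47, 16.88 and 25.82, and nhr-40, which acts in body wall muscle development, had 23.23 in replicate 1 and 33.97 in the pooled list. At the pooled peak of nhr-31 replicate 1 had no entry and replicate 2 had 16.20. The early embryonic gene nhr-2 had no entry. None of these values stood above the body of its list.

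Nuclear receptors without an nhr- name and genes of the receptor pathway were looked at in the same lists. Of 5 such receptors, fax-1, which acts in neuron identity, had 30.51 in replicate 1, 36.87 in replicate 2 and 55.57 in the pooled list, and the sex determination gene sex-1 had a pooled entry of 26.14 alone. The dauer receptor daf-12 had an entry of 21.50 in replicate 2 only, and the same held for odr-7 at 19.62 and unc-55 at 24.02, which act in neuron identity. Of 12 genes for ligand synthesis, coregulators and receptor targets, 6 had a pooled entry and none was optimal. The coactivator gene cbp-1, of the CBP and p300 type, had 19.97 in replicate 1 (q = 0.879), 68.81 in replicate 2 (q = 0.00855) and 89.32 in the pooled list (q = 0.0398, rank 390). Of the replicates, only replicate 2 placed it past a q-value of 0.05, as at nhr-142. The DAF-12 corepressor gene din-1 had 44.60, 40.16 and 65.13, but at different places of a gene with 6 starts. Of the dafachronic acid synthesis genes, dhs-16 had 16.80 in replicate 1, 15.85 in replicate 2 and 36.08 in the pooled list. For hsd-1 the values were none, 22.15 and 30.93, and no entry of either replicate overlapped its pooled peak. The other dafachronic acid genes, daf-9 and daf-36, and the nhr-49 target acs-2 had no entry in any list. The desaturase genes fat-6 and fat-7, also nhr-49 targets, had pooled values of 41.93 and 37.52. For fat-6 there was no replicate 1 entry, and replicate 2 had 31.56. The remaining genes of the 12, fat-5, mdt-15 and gei-8, had an entry in replicate 2 only, at 25.54, 22.51 and 20.06.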

How the data were processed

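ChIP-seq peak lists of 2 biological replicates were used, which form 1 group. One control file served both replicate lists and the pooled list, per the file headers, and the optimal list came from these by the IDR procedure. The signal value and the −log10 q-value of each entry were deposited by the authors. What aligner and peak caller were used, and what the signal scale means, is not given in the sources used here. Lists on build ce11 were used and those on ce10 were not.

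Summits were assigned in Python 3.11.15 (pandas 2.3.3, numpy 2.4.6, scipy 1.17.1) to 29326 protein-coding transcript starts of Ensembl release 115 within 1000 bp, an entry counting for every gene in reach. Distances are from the nearest start. The assignment was tested on simulated summits, where 200 of 200 were recovered. tRNA and snoRNA genes (634 and 346) were noted within 250 bp of the summit. Sequences came from the RefSeq genome of WBcel235. Wilson 95% intervals cover counting error over genes only. Named were the receptors with an optimal peak or a pooled q-value of 0.05 or less, the 15 highest pooled and the 5 highest of each replicate, and genes of 5 lists. Genes at the window edge, in tandem runs, near RNA genes, with another start nearer, or holding a motif were also named, after their values were seen. The genes and lists were chosen with earlier results of these data known.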

Additional observations from a re-analysis of the deposited data

How the results depend on the processing

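The number of receptor genes with an optimal peak, 2 as reported, was 0 with a window of 500 bp. It was 1 with the nearest gene only (nhr-255), 1 without peaks near tRNA or snoRNA genes (nhr-142) and 1 with the upper 138 optimal peaks (nhr-255). The 276 highest entries of a single replicate gave 2 without replicate 1 (nhr-255 and nhr-142) and 2 without replicate 2 (nhr-255 and nhr-41). The number with a pooled entry was 57 among the 10000 highest entries and 128 in the list of replicate 1, without replicate 2. The list of replicate 2, without replicate 1, gave 42.4% of the receptors. Entries in both replicates were found for 34 receptors with 500 bp and 130 with 2000 bp. Summits nearer to another gene numbered 0 with 500 bp and 40 with 2000 bp, and summits near a tRNA or snoRNA gene 1 with 500 bp and 1 with 1 start per gene. By construction these settings change the entries in reach. The median pooled signal ranged from 36 to 40.3 and the rank correlation of the replicates from 0.138 to 0.276 over the windows and assignment rules tried. No paired analysis was possible because the samples form 1 group. Unknown depth and a shared control limit what the lists can show, and most entries cannot be told apart from background.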
